A study of Mus musculus with 9 samples.

Results

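The genes described here are 10 factors of neurogenesis in the embryonic cerebral cortex, found by symbol among the 78275 gene IDs of the count table. The set was taken from what is known of the tissue, but with earlier results of these data known. The 10 factors are Neurog2, Neurog1, Gadd45g, Eomes, Insm1, Nhlh1, Nhlh2, Neurod1, Neurod2 and Neurod6, and all 10 passed the filter on low counts that left 27773 genes for testing. Of the 10, 9 encode transcription factors, and Gadd45g encodes a small growth arrest protein. The measurements are read counts of 9 RNA-seq libraries of mCherry-positive cells, sorted at E16.5 from wild-type mouse embryos that had been electroporated in utero at E14.5, 48 h earlier. The electroporated construct carried mCherry and a microRNA-embedded short hairpin against Gpc4 (sh-Gpc4, 3 libraries), against Gpc2 (sh-Gpc2, 3 libraries) or with a scrambled sequence (sh-NT, 3 libraries). Every group therefore went through electroporation and sorting, and each is a knockdown or control in transfected cells of an otherwise unmodified embryo. Both targets are glypicans, cell-surface proteoglycans that carry heparan sulfate chains, and the question of the study was what losing either does to the developing cortex.

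In the dorsal telencephalon, radial glia that leave the stem cell state switch on the proneural basic helix-loop-helix (bHLH) factors Neurog2 and Neurog1. These factors bind E-box sites as dimers with E proteins, activate the Notch ligand Dll1 and start a sequence of further factors. Eomes (also called Tbr2) marks intermediate progenitors, the dividing cells of the subventricular zone, Insm1 promotes their formation, and Neurod1 follows in late progenitors and newborn neurons. Neurod2 and Neurod6 then stay on in migrating and maturing glutamatergic neurons. At E16.5, cells electroporated at E14.5 are spread over these stages. Because each library is a bulk sample, fewer cells of a type and less RNA per cell cannot be told apart.

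The libraries held 48045603 to 66538437 reads. Whether the 3 libraries of a group derive from different embryos or litters is not stated, and their spread, on which every p-value rests, may be technical. Columns carry the numbers 1, 3 and 4 for sh-Gpc4 and 1, 2 and 4 for sh-Gpc2 and sh-NT, and libraries are named by them. Sh-Gpc4 library 3 and sh-Gpc2 library 4 stood apart from the other 7 on the first principal component, which held 71.6% of the variance of 11968 genes. Their scores were 46.7 and 36.6, against -25.8 to 15.8 in the others. All 3 sh-Gpc4 scores (-5.71, 46.7 and 15.8) lay above all 3 sh-NT scores (-17.6, -25.8 and -13.1), also without sh-Gpc4 library 3. Across genes, the 2 libraries that stand apart also had lower counts at higher GC content (Pearson's r of -0.51 and -0.45 between deviation and GC content, against -0.30 to 0.41 in the others; genes are not independent replicates). By group, this r was 0.271, -0.513 and -0.299 in sh-Gpc4 and 0.294, 0.408 and 0.377 in sh-NT. Gpc4 was at 99.9 to 137 CPM (reads scaled to a common library size with TMM factors) in sh-Gpc4 libraries and 165 to 188 CPM in sh-NT libraries (log2 fold change -0.53, SE 0.21, adjusted p = 0.488 in edgeR). Gpc2 was at 79.6 to 167 CPM in sh-Gpc2 and 161 to 207 CPM in sh-NT (-0.54, SE 0.33, adjusted p = 0.968 in edgeR). In the sh-Gpc4 libraries Gpc2 was at 70.3 to 168 CPM (-0.76 over sh-NT, SE 0.33, adjusted p = 0.488 in edgeR), and in the sh-Gpc2 libraries Gpc4 was at 116 to 216 CPM (-0.15, SE 0.21, adjusted p = 0.968 in edgeR). Between sh-Gpc4 and sh-Gpc2 the values were -0.38 (SE 0.21) for Gpc4 and -0.23 (SE 0.33) for Gpc2, with an adjusted p of 0.966 in edgeR for both. Markers of cortical cells were present as labelled, with a summed level of 2326 to 3738 CPM for 13 radial glia genes and 8973 to 12381 CPM for 12 genes of newborn and migrating neurons over the 9 libraries.

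None of the 10 factors passed the test in any comparison. In edgeR's quasi-likelihood test over all genes, 0 of 10 had an adjusted p under 0.05 in sh-Gpc4 against sh-NT, in sh-Gpc2 against sh-NT and in sh-Gpc4 against sh-Gpc2, where 0% of the 27773 genes tested did. With DESeq2 45 genes passed in the comparison of sh-Gpc4 with sh-NT, none of them one of the 10, and 0 in the other comparisons, and with limma voom 0 passed in all 3. In sh-Gpc4 against sh-NT voom came close to the threshold, with 9011 genes at an unadjusted p under 0.05. Its smallest adjusted p, 0.0531, was also that of Neurod2. Neurog1 was at 0.0572 and Eomes at 0.0707 in voom, and the other factors at 0.115 to 0.869. The factors did not move as a block either: in sh-Gpc4 against sh-NT 5 had a positive and 5 a negative log2 fold change, with a median of 0.01 beside 0.02 for all genes tested, of which 52.8% were positive. Against the same controls, sh-Gpc2 had 4 positive and 6 negative values and a median of -0.06, beside 0.00 for all genes, of which 50.7% were positive. The direct comparison of sh-Gpc4 with sh-Gpc2 had 7 positive and 3 negative values and a median of 0.11, beside -0.00 for all genes, of which 49.5% were positive. At an unadjusted p under 0.05 there were 2 of the 10 in sh-Gpc4 against sh-NT, Neurog1 and Neurod2, both lower, where 9.57% of all genes reached that level (6.01% lower and 3.56% higher). There were 0 of 10 in sh-Gpc2 against sh-NT (2.56% of all genes, 0.947% lower and 1.62% higher) and 0 of 10 in sh-Gpc4 against sh-Gpc2 (2.89% of all genes, 1.80% lower and 1.09% higher). All 3 libraries of a group lay outside the range of the other group for 2 of the 10 in sh-Gpc4 against sh-NT, where 24.0% of all genes did: Neurog1 was lower (13.2% of all genes) and Nhlh2 higher (10.8%). The same held for 2 of 10 in sh-Gpc2 against sh-NT (7.70% of all genes), Neurod2 and Nhlh1, both lower (4.11%). In sh-Gpc4 against sh-Gpc2 it held for 1 of 10 (5.50% of all genes), Neurog2, which was higher (3.50%). Each of these shares of the 10 factors rests on 1 or 2 genes.

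**Figure D1:**
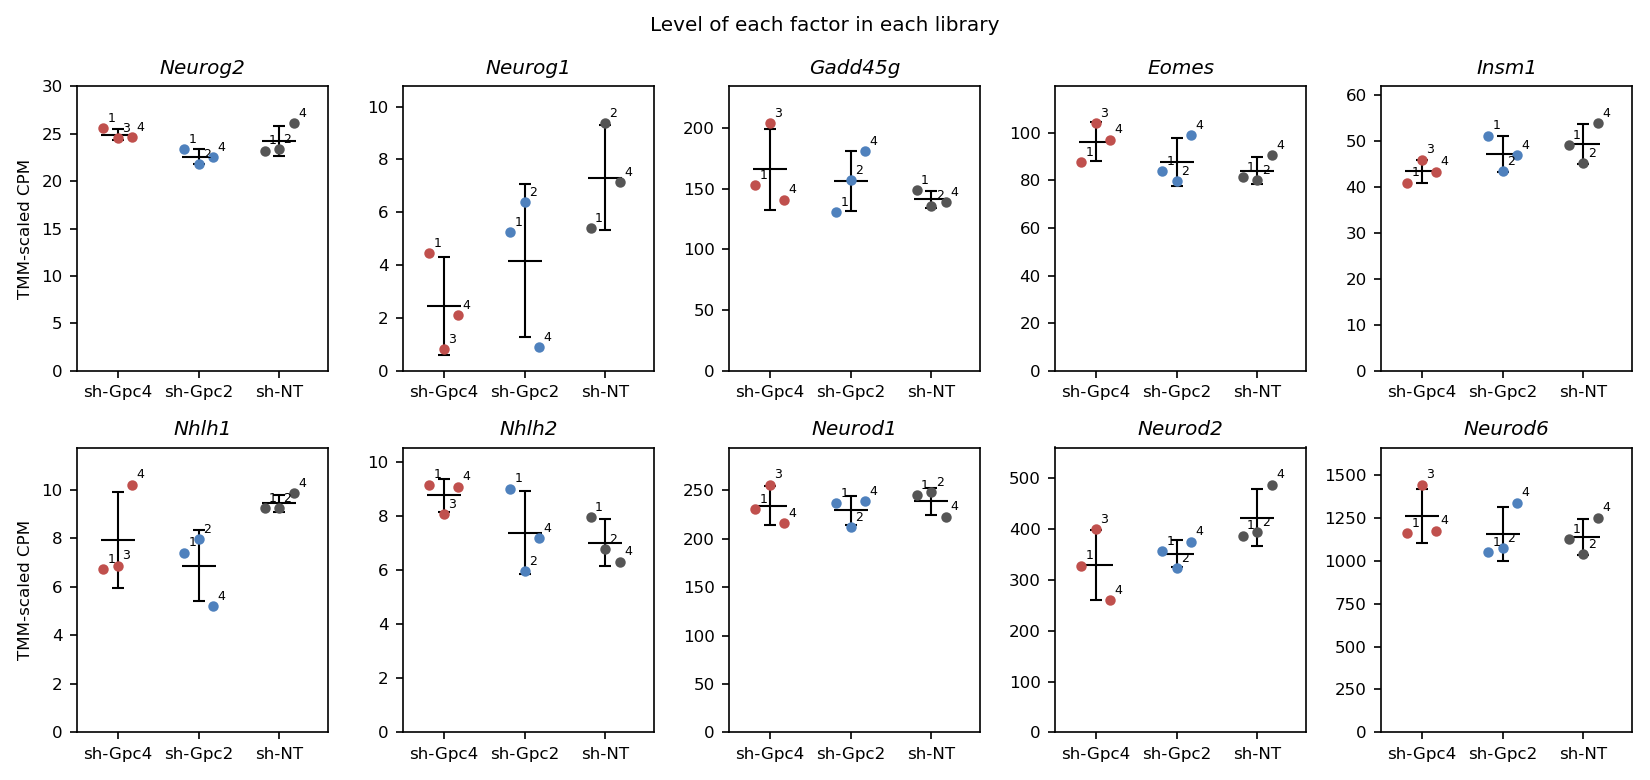
TMM-scaled CPM of each of the 10 factors in each library, with the library's number beside its point, and the mean ± SD of the 3 libraries of each group as bars. Neurog1 runs from 0.810 to 9.37 CPM, while Neurog2 stays between 21.8 and 26.1 CPM.

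**Figure D2:**
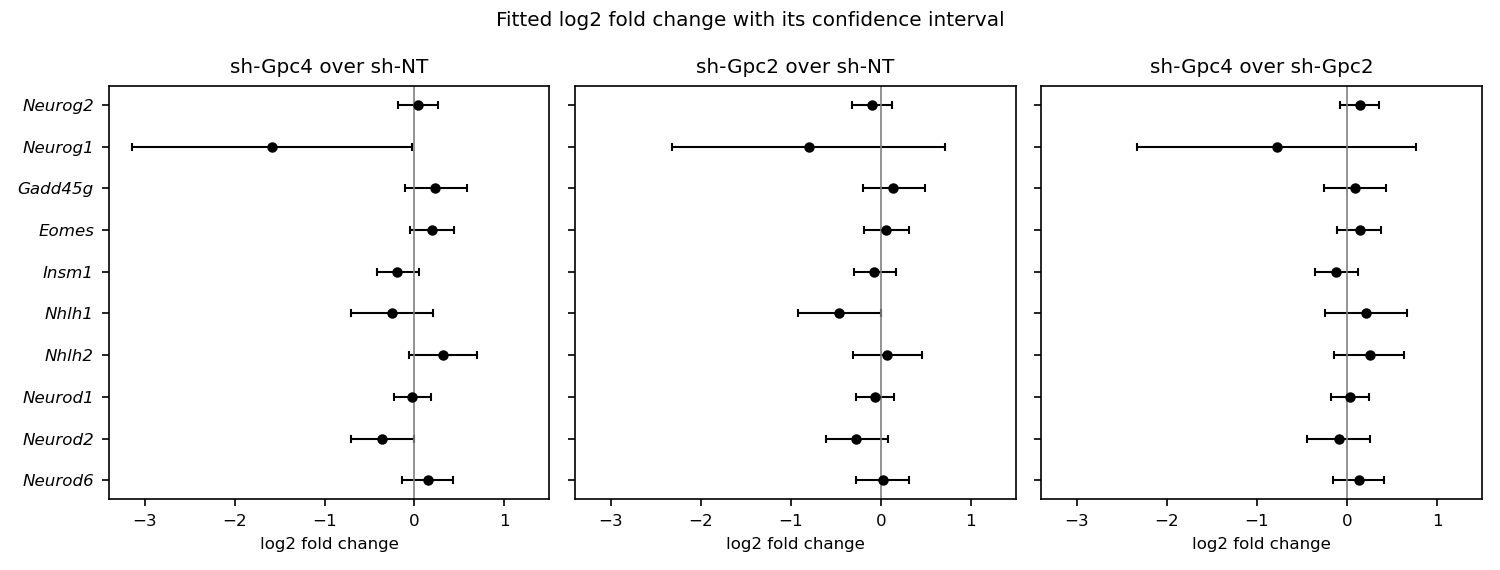
Fitted log2 fold change (points) and its 95% interval (bars) of each factor for sh-Gpc4 over sh-NT, sh-Gpc2 over sh-NT and sh-Gpc4 over sh-Gpc2, from edgeR. Neurog1 has the widest interval, -3.14 to -0.03 in sh-Gpc4 over sh-NT, and the values of the other factors lie between -0.46 and 0.32.

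Levels of the factors were compared per kilobase of annotated exon. Neurod6 was highest, at 586 ± 73.8 CPM per kb in sh-Gpc4, 537 ± 73.9 in sh-Gpc2 and 529 ± 49.6 in sh-NT (mean ± SD, n = 3 each). It ranked at percentile 99.9 of the 22126 tested genes with a known exon length. Gadd45g (142 ± 28.6, 133 ± 21.2 and 121 ± 5.51 CPM per kb in sh-Gpc4, sh-Gpc2 and sh-NT) and Neurod2 (105 ± 22.1, 112 ± 8.47 and 134 ± 17.9) came next, and their ranges over the libraries overlapped. Neurod1 followed at 85.9 ± 7.30, 84.0 ± 5.53 and 87.4 ± 4.88 CPM per kb, with a range that overlaps that of Neurod2. Eomes was at 23.2 ± 1.98, 21.1 ± 2.44 and 20.2 ± 1.39 CPM per kb, Insm1 at 14.0 ± 0.805, 15.2 ± 1.24 and 15.9 ± 1.39, and Neurog2 at 11.2 ± 0.277, 10.1 ± 0.359 and 10.9 ± 0.743, with no overlap between the ranges of these 3. Nhlh1, Neurog1 and Nhlh2 were lowest, from 0.480 to 5.56 CPM per kb over the 9 libraries, and the range of Neurog1 included those of both others. Exon lengths are those of GENCODE M21, and a gene whose cells use only some of its exons would be placed too low.

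**Figure D3:**
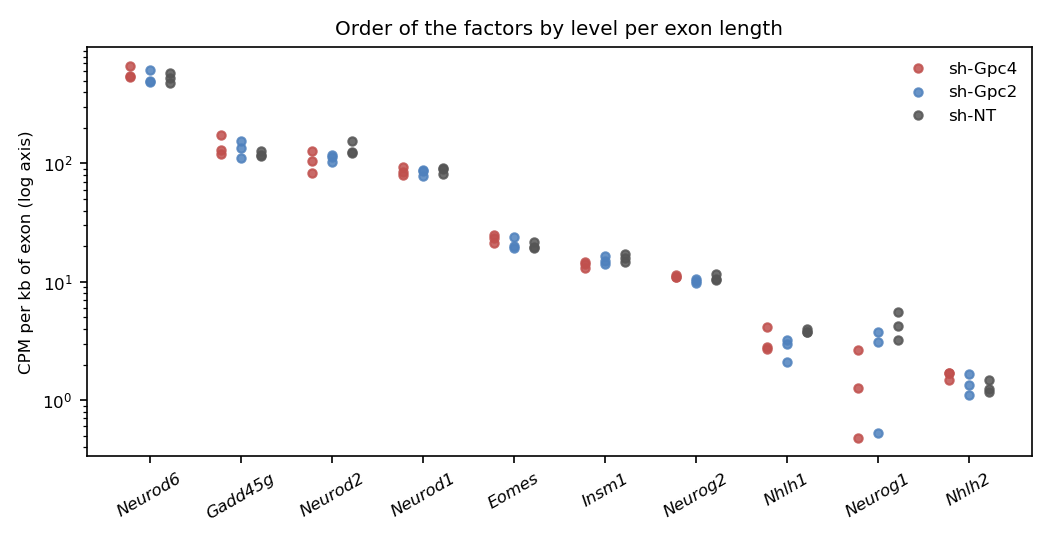
Level of each factor in CPM per kilobase of exon, on a log axis, in the libraries of sh-Gpc4 (red), sh-Gpc2 (blue) and sh-NT (grey), in descending order of the mean. Neurod6 lies between 483 and 671 CPM per kb over the 9 libraries, and Neurog1 is the gene with the widest spread within a group.

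The proneural pair behaved differently within groups. Neurog2 (ENSMUSG00000027967, GRCm38 chromosome 3, 127633135 to 127635631, plus strand) had 25.6, 24.5 and 24.6 CPM in sh-Gpc4 libraries 1, 3 and 4, 23.4, 21.8 and 22.5 CPM in sh-Gpc2 libraries 1, 2 and 4, and 23.2, 23.4 and 26.1 CPM in sh-NT libraries 1, 2 and 4. Its highest library was 1.20 times its lowest, and its SD within groups, 0.066 on the log2 scale, ranked at percentile 3.38 of the 5362 tested genes within a factor of 2 of its level. The log2 fold change was 0.04 (95% interval -0.18 to 0.26, adjusted p = 0.864 in edgeR) for sh-Gpc4 and -0.10 (-0.32 to 0.12, 0.968) for sh-Gpc2 over sh-NT. Directly between the knockdown groups the 3 sh-Gpc4 libraries lay above the 3 sh-Gpc2 libraries, a log2 fold change of 0.14 (-0.08 to 0.36, adjusted p = 0.966 in edgeR), with an exact two-sided permutation p of 0.1, the smallest that 3 against 3 libraries allow.

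Neurog1 (ENSMUSG00000048904, chromosome 13, 56250478 to 56252163, minus strand, a gene of 1 exon) was the factor with the largest difference and the largest spread. It had 4.45, 0.810 and 2.12 CPM in sh-Gpc4 libraries 1, 3 and 4, 5.24, 6.37 and 0.895 CPM in sh-Gpc2 libraries 1, 2 and 4, and 5.41, 9.37 and 7.15 CPM in sh-NT libraries 1, 2 and 4. All 3 sh-Gpc4 libraries were below every sh-NT library, while sh-Gpc2 overlapped sh-NT. The 2 lowest values, 54 and 44 reads, were those of the libraries that stand apart. The mean was 2.46 ± 1.85 CPM in sh-Gpc4 and 7.31 ± 1.98 CPM in sh-NT, a ratio of 0.334 (95% interval 0.114 to 0.982; unadjusted p = 0.0470, adjusted p = 0.488 in edgeR; exact permutation p = 0.1). In sh-Gpc2 it was 4.17 ± 2.89 CPM, a ratio to sh-NT of 0.573 (0.201 to 1.64; adjusted p = 0.968 in edgeR). Without both libraries that stand apart the log2 fold change was -1.17 in place of -1.58 for sh-Gpc4 and -0.35 in place of -0.80 for sh-Gpc2. Its SD within groups of 1.2 on the log2 scale exceeded that of 99.1% of the 4191 tested genes of similar level, whose median was 0.24.

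As a description chosen after the values were seen, the ratio of Neurog1 to Neurog2 per kilobase of exon was 0.230, 0.0437 and 0.114 in the sh-Gpc4 libraries, 0.296, 0.386 and 0.0525 in the sh-Gpc2 libraries and 0.308, 0.529 and 0.361 in the sh-NT libraries. The ratio was below the sh-NT range in all 3 sh-Gpc4 libraries and in 2 of the 3 sh-Gpc2 libraries. How often ratios of other gene pairs do so was not computed. Gadd45g, which is expressed in cells that leave the cycle (ENSMUSG00000021453, chromosome 13, 51846678 to 51848468, plus strand), had 153, 204 and 141 CPM in sh-Gpc4, 131, 157 and 181 CPM in sh-Gpc2, and 149, 136 and 139 CPM in sh-NT. Its highest values were again those of sh-Gpc4 library 3 and sh-Gpc2 library 4, and the groups overlapped. The log2 fold change was 0.23 (SE 0.15, adjusted p = 0.520 in edgeR) in sh-Gpc4 and 0.14 (SE 0.15, 0.968) in sh-Gpc2 over sh-NT. Without those 2 libraries it was 0.05 and 0.01, and with each library's GC trend removed it was 0.67 and 0.39.

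The intermediate progenitor factors differed little. Eomes, a T-box factor (ENSMUSG00000032446, chromosome 9, 118478212 to 118486132, plus strand), had 87.6, 104 and 97.1 CPM in sh-Gpc4, 84.0, 79.7 and 99.0 CPM in sh-Gpc2, and 81.3, 80.2 and 90.6 CPM in sh-NT. Of the sh-NT libraries, library 4 reached into the sh-Gpc4 range, as did sh-Gpc2 library 4. The log2 fold change was 0.20 (95% interval -0.05 to 0.44, adjusted p = 0.489 in edgeR) in sh-Gpc4 and 0.06 (-0.19 to 0.31, 0.968) in sh-Gpc2, and -0.05 in sh-Gpc2 without both libraries that stand apart. An antisense gene of GENCODE M21, Gm33460, overlaps Eomes and held up to 2370 reads in a library. Whether counting used strand is not known here, and overlap of exons was not checked. Without strand, reads from any stretch that both genes share cannot be told apart.

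Insm1, a zinc finger factor (ENSMUSG00000068154, chromosome 2, 146221921 to 146225020, plus strand), had 40.9, 45.9 and 43.3 CPM in sh-Gpc4, 51.1, 43.4 and 46.8 CPM in sh-Gpc2, and 49.1, 45.1 and 53.8 CPM in sh-NT. The sh-Gpc4 libraries lay at the low end, and library 3 was above sh-NT library 2. The log2 fold change was -0.19 (-0.42 to 0.05, adjusted p = 0.489 in edgeR) in sh-Gpc4 and -0.07 (-0.30 to 0.17, 0.968) in sh-Gpc2. With each library's GC trend removed, Insm1 was at 0.27 in sh-Gpc4 and 0.15 in sh-Gpc2, so the sign of its values depends on that step, and Eomes was at 0.38 and 0.16.

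The Nhlh genes, which encode bHLH factors of newly born neurons, were scarce. Nhlh1 (ENSMUSG00000051251, chromosome 1, 172052292 to 172057573, minus strand) had 6.71, 6.87 and 10.2 CPM in sh-Gpc4, 7.40, 7.97 and 5.21 CPM in sh-Gpc2, and 9.22, 9.22 and 9.84 CPM in sh-NT. All 3 sh-Gpc2 libraries were below every sh-NT library, and sh-Gpc4 library 4 was the highest of all 9. For Nhlh1 the log2 fold change was -0.25 (95% interval -0.71 to 0.21, adjusted p = 0.579 in edgeR) in sh-Gpc4 and -0.46 (-0.92 to 0.00; unadjusted p = 0.0518, adjusted p = 0.968 in edgeR; exact permutation p = 0.1) in sh-Gpc2. Nhlh2 (ENSMUSG00000048540, chromosome 3, 102010076 to 102015492, plus strand) had 9.17, 8.08 and 9.10 CPM in sh-Gpc4, 9.02, 5.97 and 7.20 CPM in sh-Gpc2, and 7.98, 6.78 and 6.32 CPM in sh-NT. Here all 3 sh-Gpc4 libraries were above every sh-NT library, a log2 fold change of 0.32 (-0.06 to 0.70; adjusted p = 0.488 in edgeR; exact permutation p = 0.1). In sh-Gpc2 it was 0.07 (-0.31 to 0.46, adjusted p = 0.968 in edgeR). Nhlh2 is also a marker of Cajal-Retzius cells. Of 7 such markers, Nhlh2 included, 5 were tested, with a summed level of 12.5 to 24.6 CPM in sh-Gpc4, 10.9 to 15.7 CPM in sh-Gpc2 and 10.9 to 22.5 CPM in sh-NT. Nhlh2 itself made up much of this sum, at 9.17 of 14.6 CPM in sh-Gpc4 library 1. Calb2, a calcium-binding protein of Cajal-Retzius cells and other neurons, was at 8.39 CPM in sh-Gpc4 library 4 and at 0.371 to 0.692 CPM in the other 8 libraries. Trp73 was at 0.135 to 0.220 CPM in sh-Gpc4 and 0.177 to 0.557 in sh-NT. Ebf1 was at 1.56 to 2.22 and 1.27 to 8.95 CPM, and Reln at 2.37 to 4.68 and 2.41 to 4.46 CPM, in the same order. The part of Cajal-Retzius cells in the Nhlh2 values was not tested.

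The Neurod genes carried the bulk of the reads of the set. Neurod1 (ENSMUSG00000034701, chromosome 2, 79452521 to 79456751, minus strand), which drives terminal differentiation of progenitors, had 231, 256 and 216 CPM in sh-Gpc4, 237, 212 and 239 CPM in sh-Gpc2, and 245, 248 and 223 CPM in sh-NT. The groups overlapped throughout, and the log2 fold change was -0.03 (-0.23 to 0.18, adjusted p = 0.905 in edgeR) in sh-Gpc4 and -0.06 (-0.27 to 0.15, 0.968) in sh-Gpc2. The interval in sh-Gpc4 corresponds to a ratio of 0.850 to 1.13 over sh-NT, given the spread between these libraries. Cerkl, a gene on the same strand, overlaps Neurod1 between its annotated ends and held up to 1682 reads in a library. Overlap of exons was not checked, so whether the counts of the pair affect each other is not known.

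Neurod2 (ENSMUSG00000038255, chromosome 11, 98325415 to 98329648, minus strand) had 328, 399 and 260.4 CPM in sh-Gpc4, 357, 323 and 375 CPM in sh-Gpc2, and 387, 393 and 487 CPM in sh-NT. All 3 sh-Gpc2 libraries were below every sh-NT library, and so were sh-Gpc4 libraries 1 and 4, while sh-Gpc4 library 3 reached into the sh-NT range. The log2 fold change was -0.36 (SE 0.16, unadjusted p = 0.0444, adjusted p = 0.488 in edgeR; exact permutation p = 0.3) in sh-Gpc4 and -0.27 (SE 0.16, adjusted p = 0.968 in edgeR; exact permutation p = 0.1) in sh-Gpc2. Without both libraries that stand apart it was -0.53 and -0.33. Neurod2 is GC-rich (58.7% in its longest transcript), and with each library's GC trend removed the values were 0.05 and -0.06, so the direction in sh-Gpc4 was lost with that step.

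Neurod6 (ENSMUSG00000037984, chromosome 6, 55677822 to 55681263, minus strand) had 1160.3, 1442 and 1175 CPM in sh-Gpc4, 1051, 1074 and 1337 CPM in sh-Gpc2, and 1124, 1038 and 1249.9 CPM in sh-NT. The highest values were in the 2 libraries that stand apart, and the groups overlapped. For Neurod6 the log2 fold change was 0.15 (SE 0.13, adjusted p = 0.597 in edgeR) in sh-Gpc4 and 0.02 (SE 0.13, 0.989) in sh-Gpc2, and 0.03 and -0.11 without those libraries. Neurod2 and Neurod6 are usually expressed by the same glutamatergic neurons. The ratio of Neurod2 to Neurod6 per kilobase of exon, also chosen after the values were seen and given without a test, was 0.193, 0.189 and 0.152 in the sh-Gpc4 libraries, 0.232, 0.206 and 0.192 in the sh-Gpc2 libraries, and 0.236, 0.259 and 0.267 in the sh-NT libraries. Neither knockdown group overlapped sh-NT in this ratio, and both are set against the same sh-NT libraries. How often ratios of other gene pairs lie apart was not computed. Of single genes, 24.0% did in sh-Gpc4 and 7.70% in sh-Gpc2 against sh-NT. The transcript of Neurod6 has a GC content of 41.9% against 58.7% for Neurod2, and with the GC trend removed the log2 fold changes in sh-Gpc4 were 0.03 and 0.05.

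**Figure D4:**
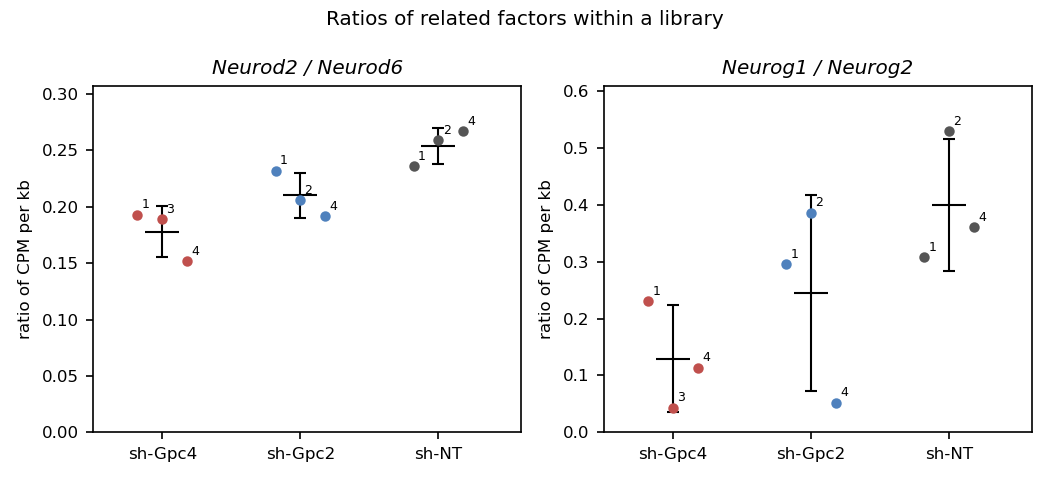
Ratio of Neurod2 to Neurod6 (left) and of Neurog1 to Neurog2 (right), each as CPM per kilobase of exon, in every library, with the mean ± SD of each group. The Neurod2 ratio lies between 0.152 and 0.193 in sh-Gpc4, between 0.192 and 0.232 in sh-Gpc2 and between 0.236 and 0.267 in sh-NT. Both ratios were chosen after the values were seen, and neither was tested.

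The windows around the start sites of Neurog1, Neurod2, Nhlh1 and Nhlh2 are shown because these are the factors for which the libraries of a knockdown group did not overlap those of sh-NT. They are RefSeq sequences of GRCm38.p6, from 250 bases before to 50 bases after the annotated start, read on the strand of the gene. The windows are chr13:56252131-56252430 (minus strand) for Neurog1, chr11:98329596-98329895 (minus) for Neurod2, chr1:172057547-172057846 (minus) for Nhlh1 and chr3:102009895-102010194 (plus) for Nhlh2. Capitals mark the E-boxes CAGATG (or its reverse complement CATCTG) and CAGCTG.
Neurog1: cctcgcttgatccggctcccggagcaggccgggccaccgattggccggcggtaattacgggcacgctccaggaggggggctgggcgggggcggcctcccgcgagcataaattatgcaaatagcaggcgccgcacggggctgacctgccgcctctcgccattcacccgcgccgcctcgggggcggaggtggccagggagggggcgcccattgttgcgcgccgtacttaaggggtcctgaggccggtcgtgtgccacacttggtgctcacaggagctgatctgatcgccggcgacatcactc
Neurod2: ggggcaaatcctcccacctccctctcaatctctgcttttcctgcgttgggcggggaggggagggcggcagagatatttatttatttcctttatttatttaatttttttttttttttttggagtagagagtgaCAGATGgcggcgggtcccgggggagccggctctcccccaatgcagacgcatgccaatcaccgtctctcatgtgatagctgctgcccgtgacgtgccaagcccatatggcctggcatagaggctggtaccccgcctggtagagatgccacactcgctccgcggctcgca
Nhlh1: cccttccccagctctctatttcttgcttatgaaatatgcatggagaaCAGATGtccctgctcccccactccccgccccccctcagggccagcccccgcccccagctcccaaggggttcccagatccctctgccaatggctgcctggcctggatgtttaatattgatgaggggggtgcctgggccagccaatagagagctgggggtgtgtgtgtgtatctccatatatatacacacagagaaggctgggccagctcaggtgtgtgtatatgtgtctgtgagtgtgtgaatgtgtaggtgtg
Nhlh2: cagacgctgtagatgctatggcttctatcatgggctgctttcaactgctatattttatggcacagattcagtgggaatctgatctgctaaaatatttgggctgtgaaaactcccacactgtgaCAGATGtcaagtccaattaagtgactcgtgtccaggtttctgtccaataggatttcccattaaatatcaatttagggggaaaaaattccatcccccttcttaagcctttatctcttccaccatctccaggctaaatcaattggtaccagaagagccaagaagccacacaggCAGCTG

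The E-box CAGATG, a form that Neurog and Neurod factors are known to bind, was found in the windows of Neurod2, Nhlh1 and Nhlh2, at offsets of -118, -203 and -127 bases from the start site. These were 3 of the 9 factors with a window in the table (Insm1 had none), and 17.2% of all 32851 windows held it on either strand. CAGCTG was in the windows of Nhlh2 and Gadd45g, 2 of 9, beside 16.3% of all windows. The letters CACNAG, a form of the N-box bound by Hes repressors, searched on both strands, were in 6 of 9, beside 42.5% of all windows, and none of these matches overlapped another. The window of Neurog1 held none of the 3. A match is a description of the letters in this window only, and no binding was measured.

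The factors did not covary as a group over the 9 libraries. Of 45 pairs, 33 had a Pearson's r of log2 CPM between -0.4 and 0.4, and the median was 0.10. Eomes and Neurod6 were the most alike (r = 0.90, exact permutation p = 0.000794, adjusted over the 45 pairs 0.0354; Spearman's rho = 0.90, p = 0.00203, adjusted 0.0913). Leaving out the 2 libraries farthest from the median of Eomes, which are those that stand apart, r was 0.75 over the other 7. Eomes and Neurog1 ran in opposite directions (r = -0.89, exact permutation p = 0.00157, adjusted 0.0354; rho = -0.80, p = 0.0138, adjusted 0.311), with r = -0.75 without the same libraries. Neurod6 and Gadd45g (r = 0.82, adjusted exact permutation p = 0.0902; rho = 0.67, adjusted 0.489) had r = 0.16 without them, so that relation rests on those libraries. Neurog1 and Gadd45g (r = -0.82, adjusted exact permutation p = 0.102; rho = -0.63, adjusted 0.489) had r = -0.10 without them. Insm1 was most like Neurod2 (r = 0.71, adjusted exact permutation p = 0.228; rho = 0.65, adjusted 0.489), with r = 0.52 without the 2 libraries farthest from the median of Insm1. The highest r of Neurog2 over the 9 libraries was 0.36, with Eomes, and without the 2 libraries that stand apart its r was 0.73 with Eomes and 0.80 with Neurod6. The pairs share their libraries, scaling and group differences.

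**Figure D5:**
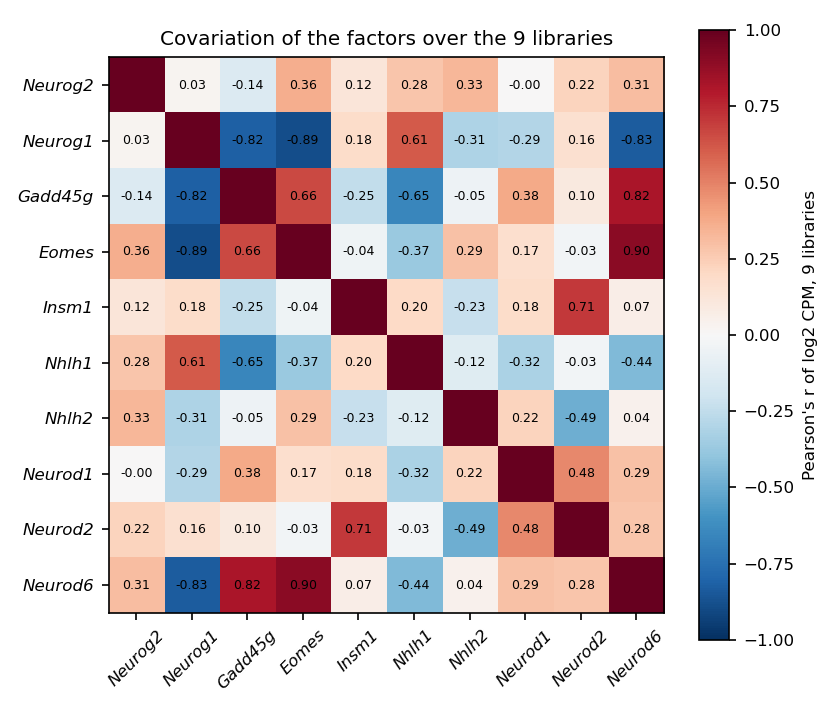
Pearson's r between the log2 CPM of each pair of the 10 factors over the 9 libraries, from blue (-1) to red (1). Eomes, Neurod6 and Gadd45g have r between 0.66 and 0.90 with each other and between -0.82 and -0.89 with Neurog1. Without the 2 libraries that stand apart, r was -0.19 for Eomes with Gadd45g, 0.16 for Neurod6 with Gadd45g, -0.36 for Neurod6 with Neurog1 and -0.10 for Gadd45g with Neurog1.

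Genes outside the set were ranked by the correlation of their log2 CPM with the mean of the standardised factor levels over the 9 libraries, among 12441 genes with a symbol and at least 5 CPM on average. The 6 most alike were Scn3a (r = 0.97), Tmem62 (0.95), Hecw1 (0.94), Tulp4 (0.93), Bace1 (0.93) and Klhl24 (0.92). Scn3a, a voltage-gated sodium channel of the fetal brain, had 131, 147 and 124 CPM in sh-Gpc4, 123, 104 and 128 CPM in sh-Gpc2, and 133, 121 and 155 CPM in sh-NT. Like the standardised mean itself, all 6 were high in sh-Gpc4 library 3 and sh-NT library 4 and lowest in sh-Gpc2 library 2.

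Of 20 other genes of intermediate progenitors and proneural targets, 0 passed the test in any comparison. In sh-Gpc4 over sh-NT 10 were positive and 10 negative (median -0.05), 4 had libraries wholly below sh-NT (13.2% of all genes did) and 0 wholly above (10.8%). Those with the smallest p included the Notch ligands Dll1, at 38.4, 17.8 and 25.5 CPM in sh-Gpc4 and 49.9, 55.9 and 41.6 CPM in sh-NT (log2 fold change -0.85, SE 0.34), and Dll3, at 21.6, 9.45 and 20.0 CPM and 28.6, 35.4 and 29.8 CPM in the same groups (-0.88, SE 0.37). Celsr1, an adhesion receptor of planar polarity, was at 42.5 ± 16.6 CPM in sh-Gpc4 and 74.7 ± 10.8 CPM in sh-NT. Adjusted p was 0.488 in edgeR for all 3, and each was lowest in sh-Gpc4 library 3 among the sh-Gpc4 libraries. Each was also lowest in library 4 among the sh-Gpc2 libraries, the other library that stands apart. In sh-Gpc2 libraries 1, 2 and 4 Dll1 was at 45.9, 43.9 and 19.7 CPM and Dll3 at 30.9, 36.5 and 13.6 CPM. Celsr1 was at 71.4, 71.6 and 30.8 CPM there. The part of these 2 libraries in the differences was not tested. In sh-Gpc2 over sh-NT 5 of the 20 were positive and 15 negative (median -0.14). Myt1, a zinc finger factor that promotes neurogenesis, had the smallest p there, with 89.7, 95.0 and 88.2 CPM in sh-Gpc2 and 120.4, 117 and 103 CPM in sh-NT, so the groups did not overlap (log2 fold change -0.32, SE 0.10, adjusted p = 0.968 in edgeR). In sh-Gpc4 it had 107, 88.8 and 95.8 CPM (-0.22, SE 0.10, adjusted p = 0.488 in edgeR). Between sh-Gpc4 and sh-Gpc2, 7 were positive and 13 negative (median -0.05).

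The partners and repressors of the bHLH factors were measured as a list of 10 E proteins, Id proteins and Hes or Hey repressors, of which 0 passed in any comparison. Id proteins pair with E proteins and keep them from DNA. In sh-Gpc4 over sh-NT 7 of the 10 were positive (median 0.12), with 3 wholly above sh-NT (10.8% of all genes were) and 1 wholly below (13.2%). The one below was the E protein gene Tcf3, at 54.8, 40.6 and 49.4 CPM in sh-Gpc4 and 66.6, 77.7 and 78.9 CPM in sh-NT (-0.62, SE 0.20, adjusted p = 0.488 in edgeR). Tcf3 was at 79.5, 72.5 and 44.6 CPM in sh-Gpc2 libraries 1, 2 and 4. In sh-Gpc2 over sh-NT 6 of the 10 were positive (median 0.11), with 3 wholly above sh-NT, where 3.59% of all genes were. Id1 was at 40.1, 31.8 and 34.8 CPM in sh-Gpc4 and 40.5, 46.8 and 37.4 CPM in sh-Gpc2, against 30.2, 30.6 and 29.2 CPM in sh-NT. Its log2 fold change was 0.25 (SE 0.12, adjusted p = 0.488 in edgeR) in sh-Gpc4 and 0.47 (SE 0.12, adjusted p = 0.968 in edgeR) in sh-Gpc2, and both comparisons share the sh-NT libraries. Between sh-Gpc4 and sh-Gpc2, 5 were positive and 5 negative (median -0.05).

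Markers of other cells were also present in the sort. The summed level of 10 microglia genes was 1250.3 to 1852 CPM in sh-Gpc4, 506 to 1694 CPM in sh-Gpc2 and 932 to 1471 CPM in sh-NT. In sh-Gpc4 over sh-NT 9 of the 10 were positive and 3 lay wholly above sh-NT (10.8% of all genes did), and 0 passed the test. For 9 tested of 12 GABAergic and ventral genes it was 27.9 to 31.0 CPM in sh-Gpc4, 31.9 to 41.2 CPM in sh-Gpc2 and 26.6 to 64.0 CPM in sh-NT, with the highest sum in sh-NT library 1, and Nkx2-1 had at most 1 read in a library. Sums of 4 tested of 5 oligodendrocyte precursor genes (1.27 to 4.89 CPM in sh-Gpc4, 4.57 to 14.5 in sh-Gpc2, 5.38 to 16.3 in sh-NT) and of 10 endothelial and mural genes (14.4 to 19.3, 14.4 to 24.8 and 22.7 to 32.8 CPM in the same order) were small, and sh-Gpc4 lay below sh-NT in both. By gene, 3 of 4 and 3 of 10 lay wholly below sh-NT, where 13.2% of all genes did, and 0 passed the test. Of the 10 endothelial and mural genes 9 were negative, and Pecam1 was positive. Erythroid genes summed to 57.8 to 112 CPM in sh-Gpc4, 62.0 to 125 CPM in sh-Gpc2 and 54.6 to 119.7 CPM in sh-NT. The part of these cells in the values of the 10 factors was not tested. Radial glia genes summed to 2326 to 2945 CPM in sh-Gpc4, 2725 to 3738 CPM in sh-Gpc2 and 2716 to 2858 CPM in sh-NT. In the 2 libraries with the lowest Neurog1, the sum was 2326 CPM in sh-Gpc4 library 3, the lowest of all 9, and 2725 CPM in sh-Gpc2 library 4, within the sh-NT range. Single genes in sh-Gpc2 library 4 went both ways. Fabp7 (827 CPM, 638 to 676 in sh-NT), Aldoc (286, 249 to 278) and Slc1a3 (404, 359.6 to 390.0) were above sh-NT. Hes5 (204 CPM, 283 to 395 in sh-NT), Hes1 (11.7, 32.6 to 42.1) and Nes (28.0, 46.8 to 57.9) were below it.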

How the data were processed

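What the authors deposited is a table of unnormalised counts of reads by gene, with a column for each library. The submitters' processing notes list featureCounts and Subread as tools and GRCm38 and mm10 as builds; no aligner, version, annotation release or strand setting is given in the sources used. Per the labels' protocols, RNA was purified with a PicoPure kit and made into libraries with a NEBNext low-input kit, and amplification duplicates cannot be recognised in counts. Columns name the group but not the titled replicate, so libraries were assigned to groups only.

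Symbols, places, exon lengths and GC content (longest transcript) came from GENCODE M21, with 51486 IDs matched, which hold 96.8% to 97.0% of reads. Pairs of libraries within a group differed by more than sampling noise (7.65 to 81.7 in chi-square over its degrees of freedom). The quasi-likelihood test of edgeR 4.0.16 (R 4.3.3) was fitted to all 9 libraries with TMM and the default low-count filter, adjusting p by Benjamini-Hochberg across every gene tested (threshold 0.05). The procedure was run on simulated counts with known changes, drawn for each gene independently. The simulation had no GC trend and no library that stands apart, so it does not show how the test behaves with those. Log2 CPM used a prior count of 2, and exact permutation tests are two-sided. Neurog1 had 44 to 555 reads in a library.

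The 10 factors, gene lists and tests were chosen with earlier results of these data known. Named besides the factors are up to 4 genes of a list by smallest p and the 6 most alike in pattern; any other gene was chosen after its values were seen. Alternatives were DESeq2 1.42.0 (size factors, Wald test), limma 3.58.1 voom with sample weights, no filter, more than 5 CPM in at least 3 libraries, a fit of the 2 groups compared alone, a replicate block, removal of each library's GC trend (spline with 6 degrees of freedom), leaving out each library and, chosen after seeing the data, leaving out both libraries that stand apart.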

Additional observations from a re-analysis of the deposited data

How the results depend on the processing

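For the 30 log2 fold changes (10 factors in 3 comparisons), 510 of 540 values under alternatives kept their direction and stayed past no threshold, 30 turned in sign and 0 passed. These include fits without a library of the group not compared, which can hardly move a fold change. The count of agreements is therefore not a measure of robustness. Genes called were 0 under every setting in the 3 comparisons except 45 with DESeq2's Wald test in sh-Gpc4 against sh-NT, none of them one of the 10 factors.

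With the GC trend removed, sh-Gpc4 over sh-NT gave 0.27 for Insm1 and 0.05 for Neurod2, and the median of the factors was 0.16 in place of 0.01. In sh-Gpc2 over sh-NT the signs of Insm1 (0.15), Neurog2 (0.04) and Neurod6 (-0.04) turned, and in sh-Gpc4 over sh-Gpc2 those of Insm1 (0.11), Neurod1 (-0.02) and Neurod2 (0.10).

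Same-numbered columns correlated between -0.10 and 0.68 in their deviations from group means, above 0.1 in 4 of 7 pairs. Differently numbered columns were not compared, so these values cannot decide whether the numbers pair the samples. The main fit did not pair them. With the replicate block by column number, the counts of calls stayed at 0, the median of the factors was -0.06 in sh-Gpc4 over sh-NT and 0.00 in sh-Gpc4 over sh-Gpc2 in place of 0.11, and Neurod6 was at -0.01 in sh-Gpc4 over sh-NT. In sh-Gpc4 over sh-Gpc2 the block turned Neurog1 (0.08), Neurod1 (-0.05), Neurod6 (-0.03) and Gadd45g (-0.09). The block changed no call. Column number 3 occurs only in sh-Gpc4, so the block term for it was fitted by sh-Gpc4 library 3 alone. That library, which stands apart on the first principal component, therefore did not inform the group differences in this fit. The block thus also acts as a fit without sh-Gpc4 library 3, and its values cannot be read as an effect of pairing alone.

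Voom gave -0.03 for Neurod1 and -0.01 for Gadd45g in sh-Gpc4 over sh-Gpc2. Leaving out both libraries that stand apart gave a median of -0.04 in sh-Gpc4 over sh-NT, and -0.05 for Eomes and -0.11 for Neurod6 in sh-Gpc2 over sh-NT.

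Leaving out 1 library at a time, signs turned for these: in sh-Gpc4 over sh-NT Neurod1 ran from -0.08 to 0.03. In sh-Gpc2 over sh-NT Eomes ran from -0.04 (without sh-Gpc2 library 4) to 0.12, Insm1 from -0.13 to 0.00, Neurod6 from -0.10 to 0.10 and Nhlh2 from -0.09 (without sh-Gpc2 library 1) to 0.21. In sh-Gpc4 over sh-Gpc2 Neurod1 ran from -0.04 to 0.09, Neurod2 from -0.26 to 0.05, Nhlh1 from -0.02 to 0.33 and Gadd45g from -0.09 to 0.21, and the median of the factors from -0.01 (without sh-Gpc4 library 3) to 0.13.

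Where values turned, the cause was not tested. Neurog1, Nhlh1 and Nhlh2 have the fewest reads. With 3 libraries a group, the printed intervals rest on the spread between these libraries. They would be too narrow for differences between embryos if that spread is technical. Neurog1 in sh-Gpc4 over sh-NT ran from -2.32 to -1.01 over the alternatives, with adjusted p of 0.0572 to 0.963.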
